A study of Mus musculus with 14 samples.

Results

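The genes described here are 10 coactivators and coregulators of nuclear receptors: the p160 coactivators Ncoa1, Ncoa2 and Ncoa3, the PGC-1 coactivators Ppargc1a and Ppargc1b, the histone acetyltransferases Crebbp and Ep300, the bridging factors Med1 and Ncoa6, and Nrip1. They were found by symbol, and each matched 1 of the 54532 genes in the count table. RNA of the ileum mucosa was sequenced from 7 WT and 7 IKO male mice, with 1 library per mouse, after 15 weeks on a high-fat diet (HFD). The WT mice were NCoR1 flox/flox. The IKO mice carried the same floxed alleles plus a Cre recombinase under the villin promoter, which is active in the epithelium. Scraped mucosa also holds cells in which this promoter is silent. The source of the NCoR1 RNA that remained in IKO samples was not tested.

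Nuclear receptors are transcription factors switched by ligands such as fatty acids, bile acids and hormones. Without an activating ligand, many of them hold corepressors such as NCoR1, which brings histone deacetylase activity to the gene. Ligand binding reshapes the receptor so that the corepressor leaves and short LXXLL helices of a coactivator can dock in its place. The p160 proteins dock directly and bring in the acetyltransferases CBP (Crebbp) and p300 (Ep300), Med1 connects the receptor to the Mediator complex and RNA polymerase II, and the PGC-1 proteins boost programs of fatty acid oxidation and mitochondrial biogenesis. RIP140 (Nrip1) also docks on active receptors but mostly represses. The comparison asks whether RNA of the activating side of this exchange differed in ileum lacking the epithelial corepressor.

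Total counts were between 14749669 and 21557468 per library, and all 10 genes passed the filter on low counts. Ncor1, the targeted gene, had a lowest, median and highest level of 106.4, 129.7 and 194.5 CPM (counts scaled to the library size with TMM factors) in WT and 31.7, 47.7 and 64.0 CPM in IKO, so the genotypes did not overlap, and its log2 fold change was -1.41 ± 0.18 (SE; edgeR adjusted p = 0.00051). The 8 epithelial markers summed to between 12545 and 20090 CPM in WT and between 16976 and 23581 CPM in IKO, and none of them was called. Mitochondrially encoded RNA took 23.9% of the counts in WT 3 and 50.3% in IKO 4, against 3.49% to 10.3% in the other mice. Smooth muscle markers summed to 11427 CPM in WT 4. Their summed level was between 11.4 and 838 CPM in the other 13 mice, and 0 of the 8 markers differed by the test.

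None of the 10 coregulator genes differed between IKO and WT at an adjusted p under 0.05 (edgeR quasi-likelihood test, Benjamini-Hochberg adjustment over 13846 genes tested), whereas 8.67% of all genes tested did. Among all genes 4.38% were higher and 4.28% lower in IKO by this test. A set of 10 genes can hold 0 calls at the share of 8.67%, so this count does not set them apart. The CPM of the genotypes overlapped for each of the 10, and did not overlap for 3.10% of all genes. At an unadjusted p under 0.05 there were 3 of the 10, Ncoa3 and Crebbp with lower fitted values in IKO and Ppargc1b with a higher one, against 30.4% of all genes. DESeq2, another count test that was run, called 1 of the 10, Ppargc1b, against 16.6% of the 15519 genes it tested. Limma-voom with sample quality weights, also run on the counts, called 0 of the 10, against 13.6% of the 13846 genes. The median log2 fold change of the 10 was -0.09, the same to 2 decimals as the median of all genes tested, with 2 fitted values above 0 and 8 below, a split that moved to 6 above and 4 below without WT 5.

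**Figure D1:**
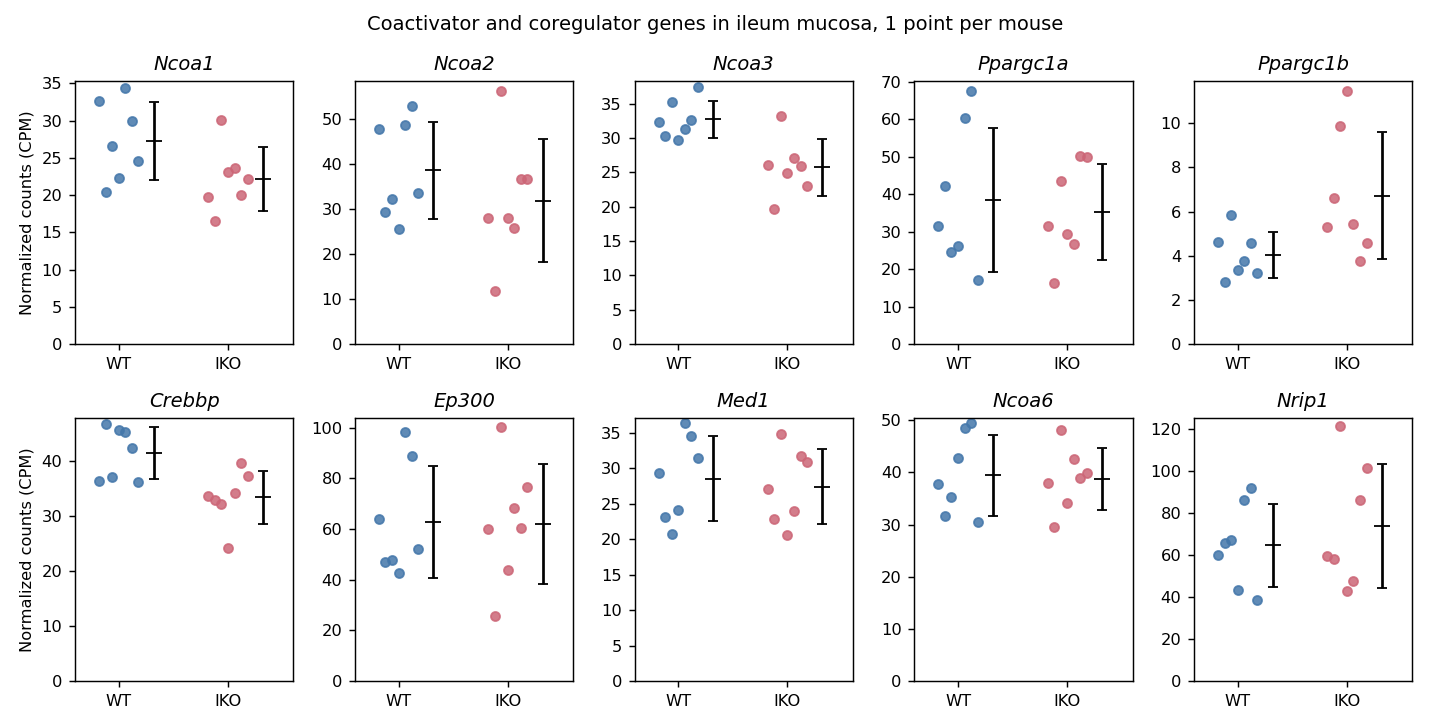
Normalized counts (CPM) of the 10 genes in each mouse, with 1 panel per gene, WT in blue, IKO in red and the mean ± SD of 7 mice in black beside the points. The genotypes overlap in every panel. For Ncoa3, 6 of the 7 IKO points lie below the lowest WT point, and for Ppargc1b 3 lie above the highest WT point.

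The p160 coactivators are among the proteins that contact the ligand-bound receptor. Ncoa3, which encodes SRC-3 (chr2:165992636-166073242, plus strand, mm10), was the most even of the 10 genes in WT, with a coefficient of variation of 8.35%. Its lowest, median and highest levels were 29.8, 32.4 and 37.4 CPM in WT and 19.7, 25.9 and 33.1 CPM in IKO. All IKO mice except IKO 3 were below the lowest WT mouse. Its means were 32.7 ± 2.73 CPM in WT and 25.7 ± 4.11 CPM in IKO (SD, n = 7 each), a log2 fold change of -0.35 ± 0.13 (SE), or 0.786 times the WT level (95% interval 0.653 to 0.946). The edgeR adjusted p was 0.0853, and the exact two-sided permutation test of this gene alone over the 3432 divisions of the mice gave p = 0.0035, not adjusted for the number of genes. Without IKO 3 the log2 fold change of Ncoa3 was -0.44 and its edgeR adjusted p 0.0447. Exons of Ncoa3 share 1.95% of their bases with Sulf2 on the opposite strand, and the strand setting of the counting is not given in the sources used here.

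Ncoa1, which encodes SRC-1 (chr12:4247362-4477182, minus strand), had a lowest, median and highest level of 20.4, 26.6 and 34.4 CPM in WT and 16.6, 22.2 and 30.1 CPM in IKO. Most of the IKO mice, 6 of 7, were below the WT median, but the ranges overlapped widely. Its log2 fold change was -0.30 ± 0.16 (SE, edgeR adjusted p = 0.22), with an interval from 0.643 to 1.03 times the WT level. Of its exon bases 0.793% are shared with 4921501I09Rik on the opposite strand. Ncoa2, which encodes SRC-2 (chr1:13139105-13374083, minus strand), ranged from 25.6 to 52.8 CPM in WT around a median of 33.5, and from 11.8 in IKO 2 to 56.1 in IKO 3 around a median of 28.1. The IKO range thus took in the whole WT range. The log2 fold change of Ncoa2 was -0.27 ± 0.27 (SE, edgeR adjusted p = 0.511), with an interval from 0.556 to 1.23 times the WT level, so that neither a moderate decrease nor a small increase could be told from no change. It moved to -0.13 without IKO 2 and to -0.49 without IKO 3. All 3 p160 genes had fitted values below 0 in the 25 alternative settings run.

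The PGC-1 coactivators had unlike levels. Ppargc1b encodes PGC-1β, a coactivator of estrogen-related receptors and PPARs that drives mitochondrial gene programs. Its lowest, median and highest levels were 2.83, 3.77 and 5.84 CPM in WT and 3.79, 5.42 and 11.5 CPM in IKO. Each of the 7 IKO mice was above the WT median, and IKO 2, IKO 3 and IKO 4 were above the highest WT mouse, WT 3. The means were 4.03 ± 1.04 CPM in WT and 6.72 ± 2.87 CPM in IKO (SD, n = 7 each). Its log2 fold change, 0.73 ± 0.27 (SE), was the one of largest size among the 10 genes and corresponds to 1.66 times the WT level (95% interval 1.11 to 2.48). The edgeR adjusted p was 0.0911 and the exact permutation test of this gene alone gave p = 0.0216. DESeq2 gave 0.77 with an adjusted p of 0.0407, the single setting of 25 alternatives in which Ppargc1b was called, and limma-voom with sample quality weights gave 0.41 with an adjusted p of 0.234. These values rest on 44 to 178 counts per library, and the highest mouse of each genotype, WT 3 and IKO 4, was the one with the high mitochondrial share. Without both, the log2 fold change was 0.67 ± 0.26 (SE, edgeR adjusted p = 0.129).

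Ppargc1a encodes PGC-1α, the cold- and fasting-induced partner of PPARs and other receptors in oxidative metabolism (chr5:51454250-51567726, minus strand). It varied most among WT mice, with a coefficient of variation of 49.7%. Its lowest, median and highest levels were 17.0, 31.6 and 67.6 CPM in WT and 16.2, 31.5 and 50.2 CPM in IKO, so the medians nearly coincided within a range of 3.97 times from the lowest to the highest WT mouse. The log2 fold change was -0.12 ± 0.31 (SE, edgeR adjusted p = 0.817), with an interval from 0.578 to 1.46 times the WT level, and its sign changed in 3 of 25 alternatives. With 1 mouse left out it ranged from -0.26 without WT 7 to 0.07 without WT 6. To set both PGC-1 genes against each other, the ratio of Ppargc1b to Ppargc1a was taken in each mouse on the deposited FPKM, which divide by gene length. The median ratio was 0.213 in WT (range 0.103 to 0.392) and 0.334 in IKO (range 0.125 to 0.673), and the difference did not pass an exact permutation test (p = 0.135, 0.269 after adjustment over the 2 ratios tested).

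Induction of Ppargc1a by cyclic AMP runs through CREB, which binds a CRE motif in a promoter of the gene. The 250 bases before the RefSeq start site of Ppargc1a (chr5:51567726-51567975, minus strand, GRCm38.p6, sequence from RefSeq) are shown because Creb1, which encodes CREB, was called lower in IKO while Ppargc1a was not called. The capitals mark the only match to the CRE core CGTCA, searched also as its reverse complement TGACG, at position -49 from the start site.

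Ppargc1a: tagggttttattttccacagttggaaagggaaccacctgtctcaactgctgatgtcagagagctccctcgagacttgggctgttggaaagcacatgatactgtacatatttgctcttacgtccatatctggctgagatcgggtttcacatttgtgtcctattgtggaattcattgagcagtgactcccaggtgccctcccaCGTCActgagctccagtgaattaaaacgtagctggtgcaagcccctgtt

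The core was found in 17.8% of the 32851 upstream windows of the same length in the RefSeq table. Among the 8 windows examined for 7 of the coregulator genes used here, that of Ppargc1a held a match and the others did not. Windows of Ncoa2, Ncoa3 and Ppargc1b were not examined. A match of 5 bases is a description of these letters and does not show that a factor binds there. Ppargc1a has 5 annotated transcripts, and whether the marked match is the CRE of the cyclic AMP response was not tested.

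**Figure D2:**
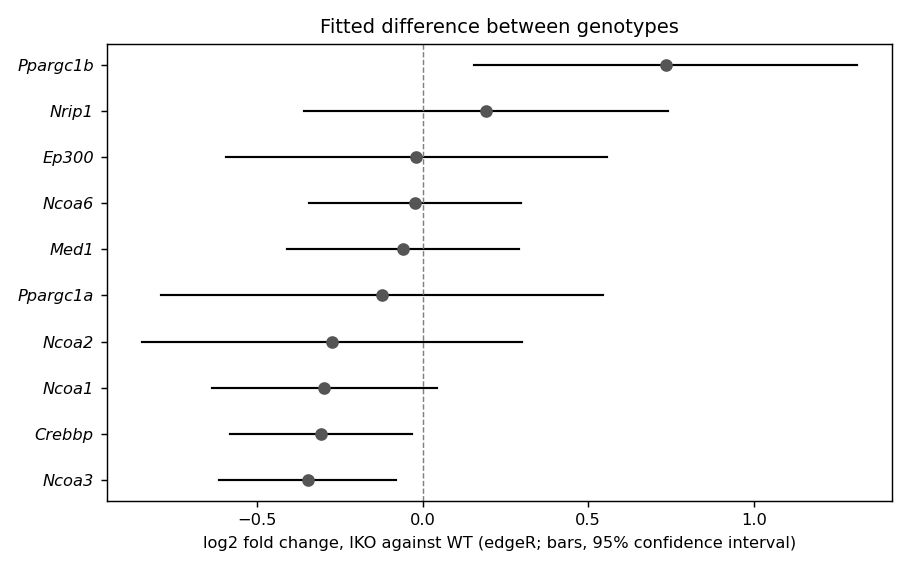
Fitted log2 fold change of IKO against WT for the 10 genes from edgeR, with 95% confidence intervals as bars and a dashed line at no change. The intervals of Ppargc1b, Crebbp and Ncoa3 leave out 0 before adjustment over all genes, and those of Ncoa2, Ppargc1a, Ep300 and Nrip1 are wide.

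The acetyltransferases CBP and p300 acetylate histones at enhancers and are recruited by the p160 proteins. Crebbp (chr16:4081328-4213997, minus strand) had a lowest, median and highest level of 36.2, 42.4 and 46.7 CPM in WT and 24.2, 33.6 and 39.5 CPM in IKO. Each IKO mouse was below the WT median, and 5 of the 7 were below the lowest WT mouse. The means were 41.3 ± 4.71 CPM in WT and 33.4 ± 4.83 CPM in IKO (SD, n = 7 each), a log2 fold change of -0.31 ± 0.13 (SE) or 0.808 times the WT level (95% interval 0.668 to 0.977). The edgeR adjusted p was 0.127, and the exact permutation test of this gene alone gave p = 0.00932. The lowest value was that of IKO 4, and without WT 3 and IKO 4 the log2 fold change was -0.27 ± 0.12 (SE, edgeR adjusted p = 0.184).

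Ep300 (chr15:81585351-81652077, plus strand), the close relative of Crebbp, had a mean of 62.9 ± 22.2 CPM in WT and 62.1 ± 23.8 CPM in IKO (SD, n = 7 each). Its lowest, median and highest levels were 42.7, 52.2 and 98.4 CPM in WT and 25.5, 60.5 and 100.3 CPM in IKO. The spread inside each genotype exceeded the difference between the means, with a log2 fold change of -0.02 ± 0.27 (SE, edgeR adjusted p = 0.97) and an interval from 0.662 to 1.47 times the WT level. The sign of this value changed in 6 of 25 alternatives, and with 1 mouse left out it ranged from -0.19 without IKO 3 to 0.13 without WT 5. The FPKM ratio of Ep300 to Crebbp had a median of 1.37 in WT and 1.72 in IKO, a difference that did not pass the exact permutation test (p = 0.396, also 0.396 after adjustment over the 2 ratios).

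Med1 is the Mediator subunit that carries LXXLL motifs (chr11:98152154-98193293, minus strand), and Ncoa6 is a receptor-binding subunit of the ASCOM complex, which holds the histone methyltransferases Kmt2c and Kmt2d (chr2:155390656-155473894, minus strand). Med1 had a lowest, median and highest level of 20.8, 29.4 and 36.4 CPM in WT and 20.5, 27.1 and 34.9 CPM in IKO. For Ncoa6 they were 30.5, 37.7 and 49.5 CPM in WT and 29.6, 39.0 and 48.2 CPM in IKO. These ranges lay almost on each other. The log2 fold changes were -0.06 ± 0.17 for Med1 (SE, edgeR adjusted p = 0.836) and -0.02 ± 0.15 for Ncoa6 (SE, edgeR adjusted p = 0.933). Their intervals ran from 0.753 to 1.22 times the WT level for Med1 and from 0.789 to 1.23 times for Ncoa6. Changes within these limits could not be told from no change. The sign changed in 2 of 25 alternatives for Med1 and in 9 for Ncoa6.

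Nrip1 encodes RIP140, a ligand-dependent corepressor of receptors that restrains oxidative genes in fat and muscle (chr16:76287400-76373827, minus strand). Its lowest, median and highest levels were 38.5, 65.6 and 91.8 CPM in WT and 42.8, 59.3 and 121.3 CPM in IKO. The IKO median was below the WT median while the IKO mean was above the WT mean, 73.8 ± 29.6 against 64.6 ± 19.8 CPM (SD, n = 7 each), since IKO 3 and IKO 7 were above all WT mice. The log2 fold change was 0.19 ± 0.26 (SE, edgeR adjusted p = 0.644), with an interval from 0.78 to 1.67 times the WT level. It was 0.02 without IKO 3 and 0.30 without WT 6, so its size depended on single mice.

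Levels of different genes were compared on FPKM only. By the WT median Nrip1 was highest with 5.58 FPKM, followed by Ppargc1a with 4.70, Ncoa3 with 4.02, Ncoa6 with 3.80, Ep300 with 3.54, Med1 with 3.29, Crebbp with 3.11, Ncoa1 with 2.98, Ncoa2 with 2.08 and Ppargc1b with 0.93. Most neighbours in this order could not be separated. Nrip1 was above Ppargc1a in 3 of 7 WT mice, Ncoa3 above Ncoa6 in 4 and Crebbp above Ncoa1 in 2. Only Ep300 over Med1, Ncoa1 over Ncoa2 and Ncoa2 over Ppargc1b held in each of the 7 WT mice. In IKO the order began with Nrip1 at 5.12 and Ppargc1a at 4.73 FPKM and ended with Ncoa2 at 1.82 and Ppargc1b at 1.38 FPKM, while Ncoa3 moved from the third to the fifth place with 3.25 FPKM.

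**Figure D3:**
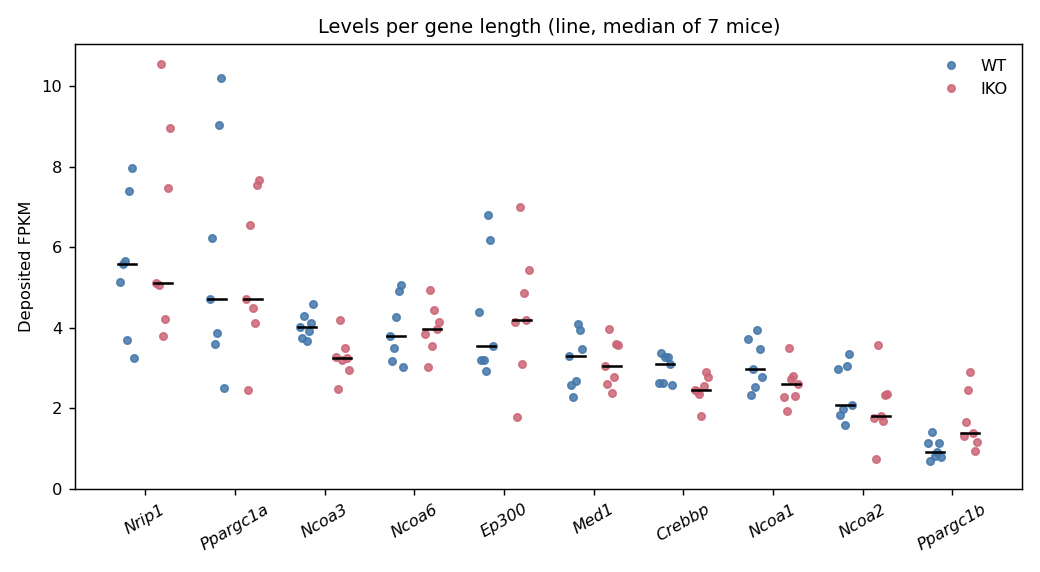
Deposited FPKM of the 10 genes in each mouse, ordered by the WT median, with WT in blue, IKO in red and medians as black lines. Ppargc1b is lowest in both genotypes, at a median of 0.93 FPKM in WT and 1.38 in IKO, and the neighbours between Ncoa3 and Ncoa1 overlap.

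The genes varied together from mouse to mouse. In WT 6 each of the 10 was above its WT mean, and in WT 5 there were 8, with median deviations of 0.33 and 0.37 on the log2 scale. In IKO 3 there were 9 above, with a median deviation of 0.32. In IKO 1, IKO 2 and IKO 4 there were 9 below. The median deviations of IKO 2 and IKO 4 were -0.54 and -0.40, and that of IKO 1 was only -0.10. Over all genes tested the median deviation of these mice lay between -0.11 and 0.01. IKO 2 was the lowest IKO mouse for 6 of the 10 genes and IKO 3 the highest for 7. The 8 epithelial markers summed to 20259 CPM in IKO 2 and to 16976 CPM, the lowest IKO sum, in IKO 4, and did not move as 1 group there. In IKO 2 Krt8 (7663 CPM), Krt18 (500.2 CPM) and Krt19 (2687 CPM), and in IKO 4 Vil1 (5433 CPM), were the highest of the 14 mice. Epcam was the lowest of the 14 mice in IKO 4 (505 CPM) and next in IKO 2 (1095 CPM). Their part in the low coregulator values was not tested.

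**Figure D4:**
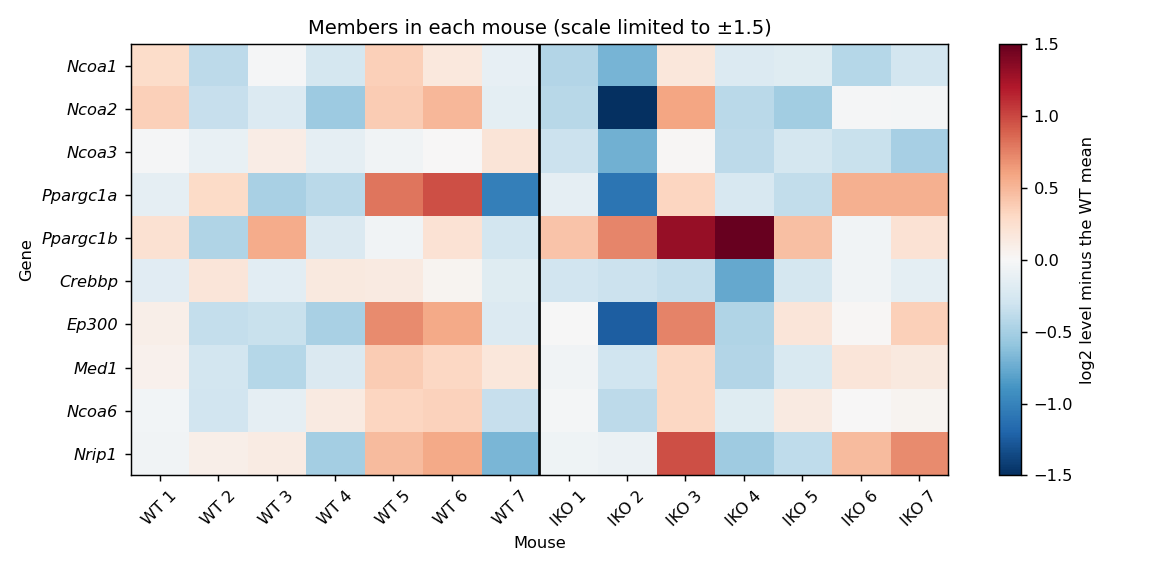
Log2 CPM of each gene in each mouse minus its WT mean, red above and blue below, with WT mice left and IKO mice right of the black line. WT 5, WT 6 and IKO 3 are red for most genes, IKO 2 is blue for 9 of 10, and Ppargc1b stands apart from the other genes in IKO 2 and IKO 4.

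After centring on the genotype means, 40 of the 45 pairs of coregulator genes correlated positively over the 14 mice (median r = 0.494), and 15 pairs passed an adjusted p of 0.05 by permutation within genotypes with adjustment over the 45 pairs, 14 positive and 1 negative. The 3 pairs given next were picked after their values were seen. Ncoa2 and Ep300 had the highest correlation (r = 0.918, permutation p = 6e-05, adjusted 0.0027, Spearman's rho = 0.855, permutation p = 0.00043), with r = 0.923 within WT and within IKO alike and 0.814 after the 2 mice farthest from the median were left out. Ppargc1a correlated with Nrip1 (r = 0.782, permutation p = 0.00161, adjusted 0.0104, rho = 0.754, permutation p = 0.00286, and r = 0.797 without the 2 farthest mice). Ppargc1b ran against Crebbp (r = -0.781, permutation p = 0.00152, adjusted 0.0104, rho = -0.728, permutation p = 0.00645). That correlation was -0.539 within WT, -0.894 within IKO, -0.698 without the 2 farthest mice and -0.595 without WT 3 and IKO 4. All these values share the library and its scaling. Ppargc1b and Ppargc1a did not vary together (r = -0.132, permutation p = 0.648, adjusted 0.748, rho = -0.165, permutation p = 0.577).

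High correlations were also found with genes outside the set. Within the set Ep300 had r above 0.8 with Ncoa1, Ncoa2 and Ncoa6 only, and Ncoa2 with Ncoa1 and Ep300 only. Whether the coregulator genes correlated with each other more often than random pairs of genes was not tested. Of 12362 other protein-coding genes, 526 or 4.25% had r above 0.8 with Ep300 and 439 or 3.55% with Ncoa2, but only 13 with Ncoa3 and 5 with Ppargc1b, again over the 14 mice and centred by genotype. As no member was called, the likest genes were named for the 3 with the largest fitted change. For Ppargc1b they were Kif1c (r = 0.849), Cep164 (0.846) and Tatdn2 (0.822). For Ncoa3 they were Myof (r = 0.866), Smad5 (0.848) and Dnmt3a (0.841). For Crebbp they were Cyp3a11 (r = 0.946), Cyp2j6 (0.935) and 1190002N15Rik (0.93). These correlations are given as descriptions.

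Around the 10 coregulators, 131 genes that work with them were followed in 8 lists. Of the 125 that could be tested 14 were called, 8 higher and 6 lower, which is 11.2% against 8.67% of all genes tested. The 14 calls and the 6 lower include Ncor1, the deleted gene, whose call was fixed by the design. The lists were also chosen with earlier results of these data known, so the shares are a description only. Over all genes tested 4.38% were called higher and 4.28% lower, the shares to set beside each list below. In bulk mucosa, fewer cells of a type and less RNA per cell cannot be told apart, and markers of crypt cells summed to medians of 269 CPM in WT and 141 CPM in IKO, with 0 of those 6 markers called.

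In the lists of the complexes that hold the coactivators no gene was called, against 8.67% of all genes called in either direction. Short lists can hold 0 calls at that share. Among the other Mediator subunits 0 of 30 tested genes were called, 19 with fitted values above 0 and 11 below, at a median log2 fold change of 0.08. Among the ASCOM partners of Ncoa6 0 of 8 were called, at a median of -0.13. Of 22 other receptor coactivators 2 were called, both lower, against 8.67% of all genes called in either direction. Ncoa7, an estrogen receptor associated protein also known for a role in oxidative stress resistance, had a lowest, median and highest level of 3.41, 6.12 and 8.36 CPM in WT and 0.656, 2.07 and 2.46 CPM in IKO. Its genotypes did not overlap, and its log2 fold change was -1.79 ± 0.32 (SE, edgeR adjusted p = 0.00552). Smarca2, the BRM ATPase of the SWI/SNF chromatin remodelers, was between 26.1 and 40.5 CPM in WT around a median of 30.5 and between 12.6 and 23.1 CPM in IKO around a median of 19.6, also without overlap (log2 fold change -0.75 ± 0.15, SE, edgeR adjusted p = 0.0104). Smarca2 was called in each of the 25 alternatives. Ncoa7 has a low level and was left out by the stricter filters. It was called in each of the 22 alternatives that tested it, with log2 fold changes from -1.90 to -0.42, the latter from limma on unfiltered FPKM.

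Of 15 tested receptors and transcription factors that PGC-1 coactivates, 3 were called higher and 0 lower, against 8.67% of all genes called in either direction. Foxo1, a forkhead factor of fasting metabolism restrained by insulin, rose from 29.8 ± 3.25 CPM to 56.8 ± 8.24 CPM (SD, n = 7 each), with the lowest IKO mouse at 40.8 and the highest WT mouse at 34.0 (log2 fold change 0.93 ± 0.13, SE, edgeR adjusted p = 0.00104). Ppard, the PPARδ gene, rose from a range of 67.7 to 105.1 CPM in WT to 110.8 to 209.9 CPM in IKO, again without overlap (log2 fold change 0.74 ± 0.17, SE, edgeR adjusted p = 0.0192). Ppara, the receptor for fatty acids that governs their oxidation, had a lowest, median and highest level of 5.65, 22.4 and 30.4 CPM in WT and 27.9, 41.7 and 112.2 CPM in IKO. Each IKO mouse was above the WT median of Ppara, with slight overlap of the ranges and a log2 fold change of 1.55 ± 0.40 (SE, edgeR adjusted p = 0.0285), and it was called in 19 of 25 alternatives.

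Of 18 regulators of PGC-1 activity, 2 were called lower and 0 higher, against 8.67% of all genes called in either direction. The list had the lowest median of the 8, -0.38, against -0.09 over all genes tested. In it 16 fitted values were below 0, as were 7826 of the 13846 over all genes tested. Prkag2, a regulatory subunit of the energy sensor AMPK, was between 32.7 and 51.7 CPM in WT around a median of 46.7 and between 18.5 and 30.1 CPM in IKO around a median of 24.8 (log2 fold change -0.83 ± 0.15, SE, edgeR adjusted p = 0.0066). Creb1, the CREB gene noted above with the Ppargc1a promoter, was between 24.6 and 32.9 CPM in WT around a median of 29.6 and between 9.39 and 24.6 CPM in IKO around a median of 11.9. The genotypes did not overlap, although IKO 3, IKO 6 and IKO 7 were close below the WT range and the other 4 IKO mice far below it. Its log2 fold change was -0.85 ± 0.23 (SE, edgeR adjusted p = 0.0379), and it was called in 12 of 25 alternatives.

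Of 18 mitochondrial biogenesis targets of PGC-1, 3 were called higher and 0 lower, at a list median of 0.04, against 8.67% of all genes called in either direction. Cycs, which encodes cytochrome c, rose from 270.1 ± 61.7 CPM to 469.6 ± 78.0 CPM (SD, n = 7 each), with no overlap of the genotypes (log2 fold change 0.80 ± 0.18, SE, edgeR adjusted p = 0.0175). Mfn2, a mitochondrial fusion protein, rose from a median of 109.1 CPM to 152.1 CPM (log2 fold change 0.54 ± 0.15, SE, edgeR adjusted p = 0.0385). Vdac1, a channel of the outer mitochondrial membrane, rose from a median of 264.9 CPM to 378.1 CPM (log2 fold change 0.54 ± 0.15, SE, edgeR adjusted p = 0.0352). Mfn2 and Vdac1 were called in 14 and 13 of 25 alternatives, and the other 15 genes of the list, split between fitted values above and below 0, did not pass the test.

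Of 10 tested corepressors that work beside Nrip1, 1 was called lower and 0 higher, against 8.67% of all genes called in either direction. Hdac2, a class I histone deacetylase, was between 26.4 and 32.6 CPM in WT around a median of 28.2 and between 13.0 and 24.7 CPM in IKO around a median of 18.5, without overlap (log2 fold change -0.66 ± 0.15, SE, edgeR adjusted p = 0.0171). In the NCoR1 complex itself, the opponent of the coactivators, 3 of the 5 genes followed here were called, of which Ncor1 is the deleted gene. Tbl1xr1, which with Tbl1x helps to exchange corepressors for coactivators, rose from a median of 57.2 CPM to 146.2 CPM (log2 fold change 1.43 ± 0.16, SE, edgeR adjusted p = 0.000225). Tbl1x rose from a median of 44.0 CPM to 78.9 CPM (log2 fold change 0.93 ± 0.18, SE, edgeR adjusted p = 0.00784). In both the genotypes did not overlap.

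**Figure D5:**
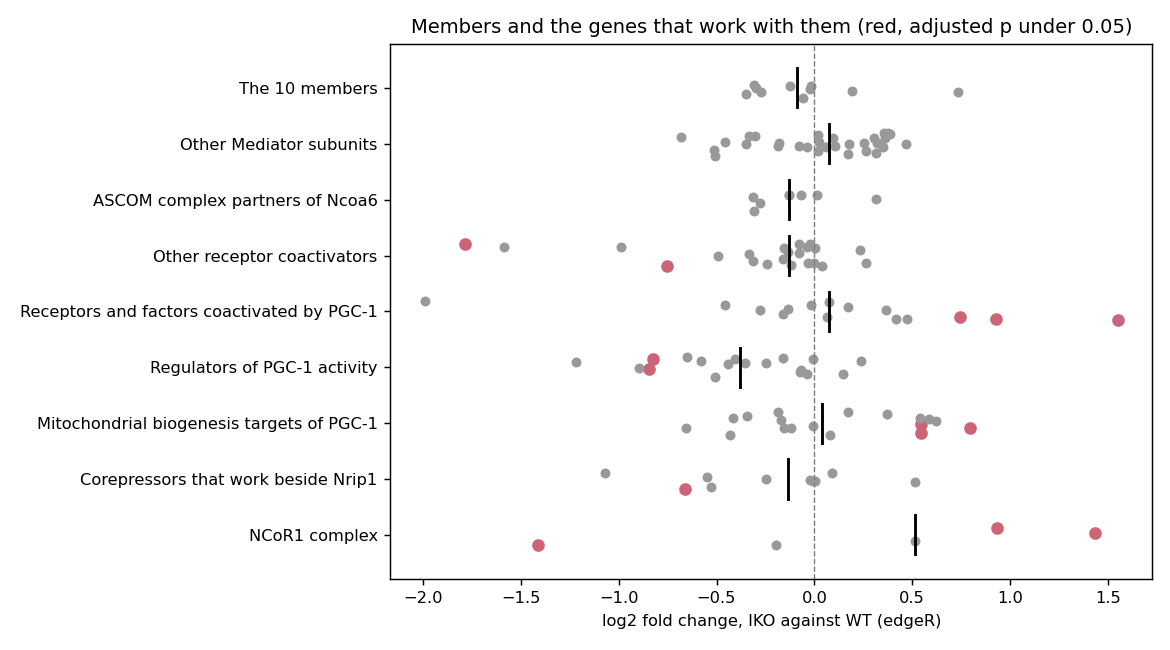
Fitted log2 fold change of IKO against WT for the 10 coregulators and the tested genes of 8 lists that work with them, with 1 point per gene, red at an edgeR adjusted p under 0.05 and a black line at each list's median. No point of the 10 coregulators, the Mediator or the ASCOM list is red, and the red points of the NCoR1 complex lie on both sides of 0.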

How the data were processed

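The mucosa was scraped from the ileum of 14 mice, and libraries were made with the NEBNext Ultra RNA kit and sequenced on a NovaSeq. Per the submitters' processing notes, HISAT2 2.0.5, featureCounts 1.5.0-p3, DESeq2 1.16.1 and the mm10 build were used. The deposited values are whole-number counts per gene and FPKM, which on testing are these counts per gene length times 1 factor per sample. Genotypes were taken from the sample titles. The samples are separate mice.

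Counts were filtered with filterByExpr, scaled with TMM and fitted with edgeR 4.0.16 (glmQLFit, glmQLFTest) in R 4.3.3, genotype being the only term. CPM use the TMM factors, and log2 CPM add a prior count of 2. The standard error is the log2 fold change over the square root of F, and intervals are at 95%. Exact permutation tests are two-sided on mean log2 CPM, with 0.000583 the smallest p possible. The fit was tested on simulated data. DESeq2 1.42.0, limma 3.58.1, other scalings, filters and left-out mice were tried as alternatives. Gene coordinates are those of the deposited table, and all 10 matched GENCODE on GRCm38.

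The members and lists were chosen with earlier results of these data known. Named were all members, Ncor1, up to 4 called genes per direction and list by size of change, and 3 likest genes for the members that changed most. Motifs in the member proteins were planned and not analysed here. In addition, 1 gene was left out of the lists and is not reported here.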

Additional observations from a re-analysis of the deposited data

Results flagged for a closer look

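Of 22 groups of 7 mice examined, 11 measures in each genotype, 2 had a mouse whose gap to its neighbour, as a share of the group's range, was above Dixon's 95% critical value, where chance gives about 5%. Both concern the share of mitochondrially encoded counts, high in WT 3 (gap 0.676 of the range) and in IKO 4 (gap 0.944 of the range). None of the 10 coregulator genes had such a mouse in either genotype. WT 3 and IKO 4 were the highest mice of their genotype for Ppargc1b, and IKO 4 the lowest for Crebbp, Med1 and Nrip1, and the part of the mitochondrial share in these values was not tested.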

How the results depend on the processing

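The 10 coregulator genes gave 0 calls in 23 of 25 alternatives. DESeq2 called 1 (Ppargc1b, log2 fold change 0.77), and leaving out 1 mouse gave 0 to 1 calls, the 1 being Ncoa3 without IKO 3. Leaving out 1 mouse moved the log2 fold change of Ncoa3 between -0.44 and -0.29. The sign of genes never called changed for Ncoa6 in 9, Ep300 in 6, Ppargc1a in 3 and Med1 in 2 alternatives. All genes called numbered 1200, and 2578 with DESeq2, 508 without a filter, 614 with limma on unfiltered FPKM, 1889 with quality weights and 648 without WT 3 and IKO 4. They ranged from 515 without IKO 5 to 1371 without WT 2 when 1 mouse was left out, with 526 without IKO 1, 600 without WT 7, 728 without IKO 2, 746 without WT 4 and 789 without IKO 7. The cause was not tested. Limma on FPKM moved the median of all genes from -0.09 to 0.02 and the split from 607 higher and 593 lower to 708 higher and 328 lower. That fit used another filter and tested 12165 genes, against 13846 in the main fit, so the gene sets differ. The settings without a filter tested 29041 genes. The lists of partner genes held 14 calls, and 27 with DESeq2. With the sample number as a replicate block there were 362 calls over all genes, 7 in the lists and 0 among the 10. No pairing by number was seen, as 1 of 7 correlated best with its own number and the correlations ran from -0.31 to 0.23. Weak correlations cannot show that the numbers carry no pairing. Depth limits Ppargc1b most, at 44 counts in its shallowest value.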
